A study of Mus musculus with 8 samples.

Results

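The 34 genes described here carry symbols of cytoplasmic ribosomal proteins (1 of them, Rps4l, is a transcribed pseudogene in RefSeq), and their signals were followed in cumulus cells from before the ovulatory stimulus until after ovulation. A gene was included where a probe set of the array carried 1 gene symbol and that symbol was of the Rpl, Rps or Rplp series or Rpsa; the Rps6k kinases were not included. This gave 48 probe sets for 34 genes, out of 8251 genes with a probe set of 1 symbol. Symbols that begin with Rpl were counted to the large ribosomal subunit and the others to the small one, which gave 17 genes each. Rps4l and Rpl7l1, which in human cells belongs to ribosome assembly, were counted in this way too. A gene with several probe sets, of which there were 10, is given by the one that was brightest on average over the arrays. Cumulus cells are the somatic cells around the oocyte, which lay down an extracellular matrix and spread apart before ovulation.

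Cells of 2 genotypes were compared, EP2KO (Ptger2-/-, lacking the EP2 receptor for prostaglandin E2) and wild type (WT), with the strain given as C57Bl/6. The labels describe no tissue-specific deletion, so the receptor is taken to be missing from every tissue. All mice were females of 3 to 4 weeks that had received 5 IU of PMSG, a hormone acting like FSH, and the mice sampled at 3, 9 and 14 h had also received 5 IU of hCG, acting like LH, 48 h after the PMSG. The mice of 0 h had no hCG. Each genotype has 1 Affymetrix MG_U74Av2 array at 0, 3, 9 and 14 h, so there are 8 arrays, and the labels do not say how many mice were pooled for one. Up to 9 h the complexes of oocyte and cumulus were released from follicles and stripped mechanically. The complexes of 14 h came from the oviduct and hyaluronidase was used to strip them, so being past ovulation and this way of collecting cells cannot be told apart. The arrays of a time are of different genotypes and so of different mice, but no array is repeated within a genotype and time. The p-values therefore measure how these arrays vary around the fit, and some of that variation may be technical.

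A ribosome joins a small subunit, which reads the mRNA, to a large subunit, which forms the peptide bond and holds the exit tunnel of the new protein. Vertebrate ribosomal protein mRNAs begin with a pyrimidine run at the 5′ end, called a TOP element, through which mTOR signalling, LARP1 and the 4E-BP proteins control their translation. Most of the proteins are needed in equal numbers in each ribosome, and subunits are put together in the nucleolus. Cumulus cells divide and grow under FSH and oocyte signals, and after the LH surge they leave the cell cycle while they make and secrete matrix.

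The start regions of 9 genes are shown because these genes carry the patterns described below or form a pair of near relatives. Each line holds 35 bases before and 25 bases from the start site given by RefSeq on GRCm38.p6. The capitals mark the longest run of C and T that reaches into the 20 bases on either side of that start.
Rps7, chr12:28635929-28635988, minus strand: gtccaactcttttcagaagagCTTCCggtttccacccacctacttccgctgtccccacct
Rpl19, chr11:98026889-98026948, plus strand: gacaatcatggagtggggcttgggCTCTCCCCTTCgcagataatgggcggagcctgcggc
Rpl7a, chr2:26910772-26910831, plus strand: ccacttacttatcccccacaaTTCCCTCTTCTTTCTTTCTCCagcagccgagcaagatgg
Rps18, chr17:33955641-33955700, minus strand: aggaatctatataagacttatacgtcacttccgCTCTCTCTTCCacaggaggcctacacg
Rps10, chr17:27635220-27635279, minus strand: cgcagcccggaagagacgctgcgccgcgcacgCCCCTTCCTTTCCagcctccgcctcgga
Rpl13a, chr7:45128721-45128780, minus strand: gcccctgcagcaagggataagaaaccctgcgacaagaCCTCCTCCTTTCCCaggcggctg
Rpl35a, chr16:33056447-33056506, plus strand: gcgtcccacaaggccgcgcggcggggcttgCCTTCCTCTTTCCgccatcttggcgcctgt
Rps27, chr3:90213624-90213683, minus strand: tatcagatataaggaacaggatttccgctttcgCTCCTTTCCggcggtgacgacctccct
Rps27l, chr9:66946051-66946110, plus strand: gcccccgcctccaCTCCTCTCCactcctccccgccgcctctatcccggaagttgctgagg

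The longest run spans 21 bases in Rpl7a, 14 in Rpl13a, 13 in Rps10 and in Rpl35a, 11 in Rps18 and in Rpl19, and 5 in Rps7. A promoter entry was found for 27 of the 34 genes, and 7 of them had several, of which the one with the longest run is shown. A run of at least 8 pyrimidines that reached into these bases stood in 13 of the 27 genes, against 23.7% of all 27025 genes with an entry. Some of these runs lie wholly before the annotated start, as in Rps24 (−37 to −19) and Rps27l (−22 to −14), and so outside the mRNA. Motifs were searched on both strands of the 300 bases around each start. The letters CCGGAAG, a core bound by ETS factors such as GABP, were in 11 of 27 genes and in 9.93% of all genes. The letters AAGATGG, the core of the YY1 site, were in 7 of 27 against 7.28% of all genes. GGGCGG, an Sp1 core, was in 16 of 27 against 38.2%, and CACGTG, an E box that MYC can bind, was in 3 of 27 against 8.09%. These counts describe letters in a window around an annotated start, and the table's starts can lie some bases from the start used in these cells.

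Of 13 cumulus and granulosa markers listed 10 were measured. Their summed level was between 13.76 and 15.61 (log2) on EP2KO arrays and between 14.02 and 15.66 on WT arrays. Inha, the inhibin alpha subunit of granulosa and cumulus cells, was between 12.34 and 14.37 on the log2 scale on EP2KO arrays and between 12.70 and 14.22 on WT arrays. Ptx3, a matrix protein of expanding cumulus, read 11.43 at 3 h against 7.23 at 0 h on the EP2KO arrays and 12.18 against 7.54 on the WT arrays. The 0 h values of Ptx3 were below the medians of these arrays, 7.86 (EP2KO) and 7.89 (WT). So were those of Has2 (7.21 and 7.39) and Tnfaip6 (4.86 and 5.29). Of 10 oocyte markers listed 8 were measured, of which 1 fell at 3 h against 0 h and none passed in the other time comparisons. Their summed level was between 10.29 and 10.63 (log2) on EP2KO arrays and between 10.16 and 10.60 on WT arrays. Of 7 theca and stroma markers 6 were measured, of which 3 fell at 3 h and 1 rose at 14 h against 9 h. Of 6 erythroid markers 4 were measured, of which 2 rose at 3 h and 1 fell at 9 h against 3 h. Of all probe sets 17.4% rose and 25.4% fell at 3 h, and 7.59% and 11.8% at 9 h against 3 h. At 14 h against 9 h 10% rose and 10.1% fell. Ptger2 had 1 probe set, at 4.24 to 4.69 on the EP2KO arrays and 4.95 to 5.97 on the WT arrays, both near the bottom of the signal range. The standard deviation of signal lay between 1.77 and 1.99 on the 8 arrays. All signals are the deposited log2 values, and a difference of 1 is a doubling.

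The ribosomal protein genes fell into bright and dim ones. By mean signal over the 8 arrays, 19 genes were at 10 or above and 15 were under 10, a limit set after the data had been seen. Rpl13a was just above it with a mean of 10.84 and Rps13 just below it with 9.95. Over all probe sets 1365 of 12422 were at 10 or above. Signals of different probe sets do not rank the genes, since probes differ in how well they bind. The bright genes had medians of 13.07, 13.49, 13.56 and 12.46 on the EP2KO arrays at 0, 3, 9 and 14 h, and of 12.90, 13.52, 13.28 and 12.31 on the WT arrays. Both 14 h arrays were thus the lowest of their genotype. The dim genes had medians of 7.62, 7.95, 7.66 and 7.48 on the EP2KO arrays and of 7.97, 7.76, 7.65 and 7.49 on the WT arrays.

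**Figure D1:**
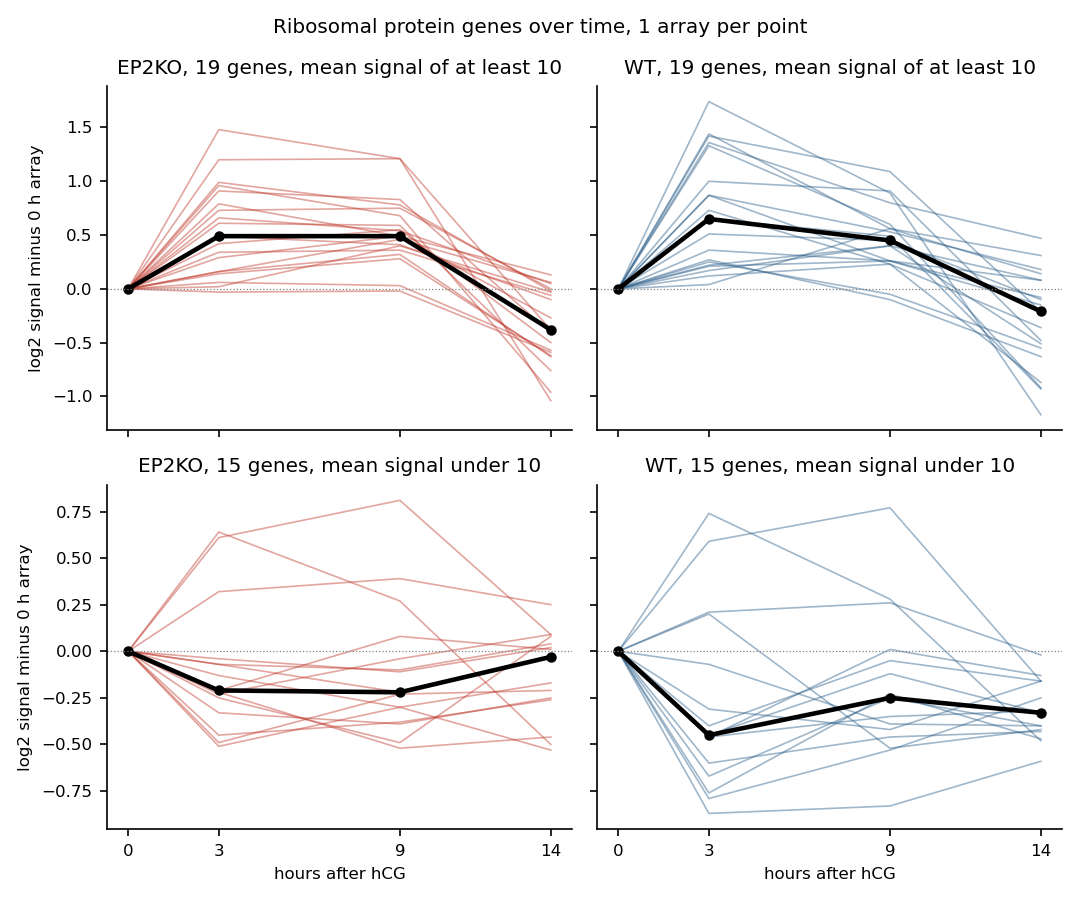
Log2 signal minus that of the 0 h array of the same genotype (vertical axis) against hours after hCG (horizontal axis), with 1 thin line per ribosomal protein gene and the median in black, for 19 bright genes (top) and 15 dim genes (bottom) in EP2KO (left) and WT cells (right). The median of the bright genes stands at 0.49 in EP2KO and 0.65 in WT cells at 3 h, and at −0.38 and −0.21 at 14 h.

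At 3 h against 0 h, the first hours after hCG, ribosomal protein genes of both subunits were called higher. Of the 34 genes, 14 rose and 7 fell in the limma fit with time and genotype (adjusted p under 0.05), where 17.4% of all probe sets tested rose and 25.4% fell. The median change of the 34 genes was 0.175 on the log2 scale, beside −0.135 over all probe sets, but it was 0.017 under quantile normalization and 0.35 without the lowest 40% of probe sets. Among the bright genes 12 of 19 rose and none fell, with 13 higher and none lower at an unadjusted p under 0.05. Of all bright probe sets 43.6% rose and 14.1% fell, so rises were more frequent among bright probe sets in general. Both 3 h arrays lay above both 0 h arrays in 19 of the 34 genes and below in 11, against 26.4% and 47.8% of all probe sets. The median of the 19 bright genes was 0.61, against 0.305 over all bright probe sets. In the dim ones 2 of 15 rose and 7 fell, against 14.2% and 26.8% of all dim probe sets.

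Of the large subunit, 7 genes rose: Rpl7a, Rpl37a, Rpl19, Rpl13a, Rpl8, Rplp0 and Rpl7l1. Rpl7a, a protein of the outer face of the large subunit, read 11.99, 13.19, 13.20 and 11.61 at 0, 3, 9 and 14 h in EP2KO cells and 11.76, 13.18, 12.85 and 11.55 in WT cells. Its change at 3 h was 1.31 ± 0.13 (SE), 2.48-fold, with an adjusted p of 9.71e-05. Both 3 h arrays lay above both 0 h arrays, and the genotypes were within 0.01 of each other at 3 h. Rpl19, which takes part in bridges between the subunits, read 12.99, 13.95, 13.67 and 12.03 in EP2KO cells and 12.70, 14.03, 13.30 and 11.78 in WT cells. It rose by 1.15 ± 0.13 (SE). Rpl37a, a zinc-binding protein, rose by 1.22 ± 0.16 and Rpl13a, which in human cells also serves in the GAIT complex that silences inflammatory mRNAs, by 1.05 ± 0.16. Rplp0, the base of the stalk that recruits elongation factors, rose by 0.77 ± 0.12 (SE). It read 13.49, 14.15, 14.03 and 13.54 in EP2KO cells and 13.33, 14.20, 13.86 and 13.51 in WT cells, and its 14 h value stood slightly above the 0 h value in either genotype.

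Of the small subunit, 7 genes rose: Rps7, Rps10, Rps18, Rpsa, Rps4l, Rps4x and Rps19. Rps7, which besides its place in the subunit can bind the p53 regulator MDM2, had the largest rise of all 34 genes. It read 11.97, 13.45, 13.18 and 10.93 at 0, 3, 9 and 14 h in EP2KO cells and 11.78, 13.52, 12.67 and 10.61 in WT cells. The change at 3 h was 1.61 ± 0.15 (SE), 3.05-fold, with a limma adjusted p of 6.89e-05. Both arrays of 3 h were the highest of the 8 and both of 14 h the lowest. Rps10, a protein of the head of the small subunit, rose by 0.96 ± 0.11 and Rps18, at the top of that head, by 0.63 ± 0.12. Rps19, the gene most often mutated in human Diamond-Blackfan anaemia, rose by 0.35 with an adjusted p of 0.0311, the smallest rise that passed.

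The 7 genes that fell at 3 h were all dim: Rpl22, Rpl32, Rps13, Rps15, Rps29, Rpl35a and Rps20. Rpl22, which in mice is dispensable for general translation but needed by developing T cells, read 8.98, 8.47, 8.68 and 8.81 in EP2KO cells and 9.11, 8.35, 8.88 and 8.64 in WT cells. Its fall was −0.64 ± 0.13 (SE), with an adjusted p of 0.00452. Both 3 h arrays were the lowest of their genotype. Rps13, which lies where the subunits meet, changed by −0.53 ± 0.12, Rpl32 by −0.56 ± 0.16, and Rpl35a, another Diamond-Blackfan gene, by −0.34 ± 0.12. No gene of the 7 fell without the WT array of 0 h or without the WT array of 3 h, where the count was 0, and it was 4 after centring the arrays on their medians. Dim signals may lie near background and detection calls were not used, so whether these probe sets measure the named genes was not tested. The remaining 13 genes did not pass at 3 h, among them the bright Rpl41, Rps3, Rps24, Rps28, Rpl6, Rpl7 and Rpl10a, whose changes were between 0.03 and 0.26.

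**Figure D2:**
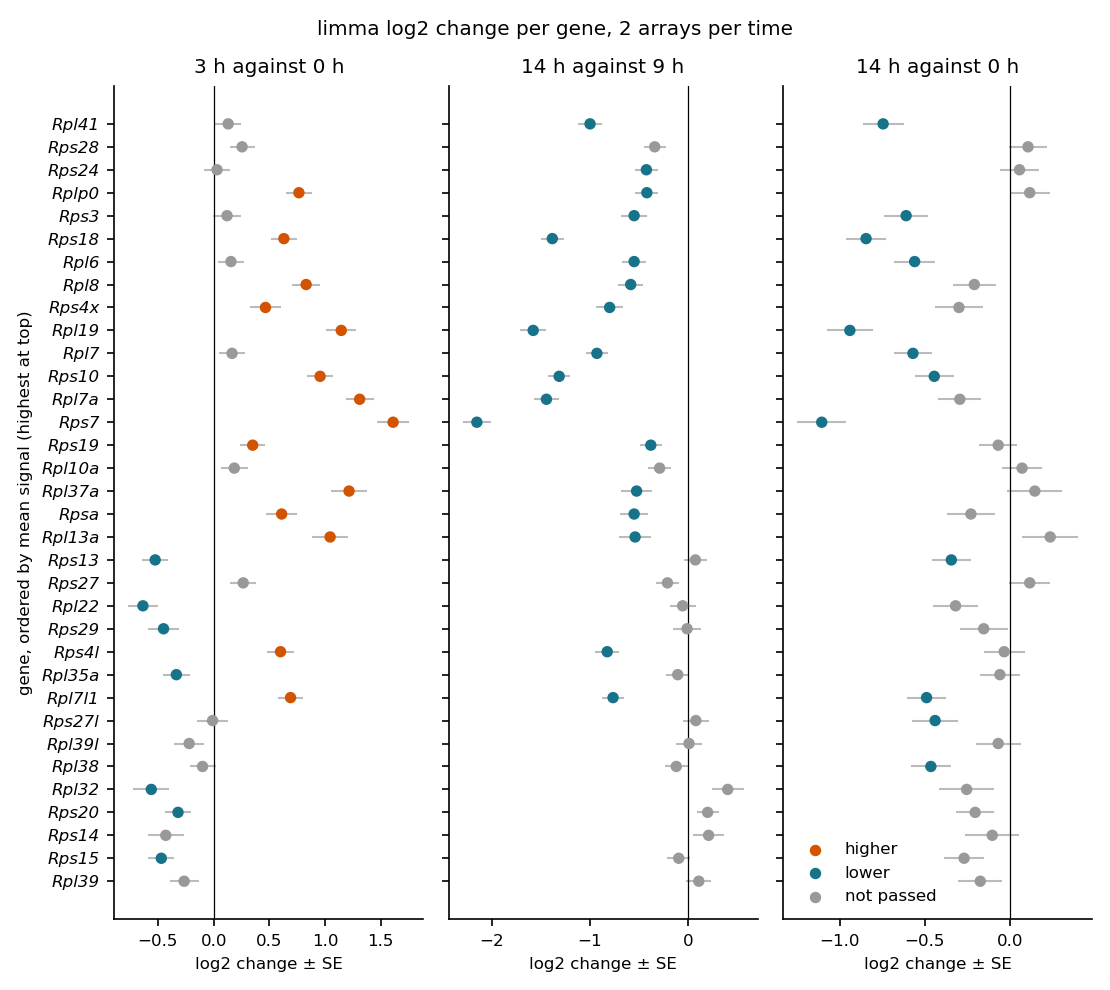
Log2 change (horizontal axes) of each of the 34 genes, ordered down the page from the highest mean signal, at 3 h against 0 h, 14 h against 9 h and 14 h against 0 h. Points are limma estimates from 2 arrays a time with bars of 1 SE, coloured where the adjusted p was under 0.05. Rps7 has both the largest rise at 3 h (1.61) and the largest fall at 14 h against 9 h (−2.16).

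**Figure D3:**
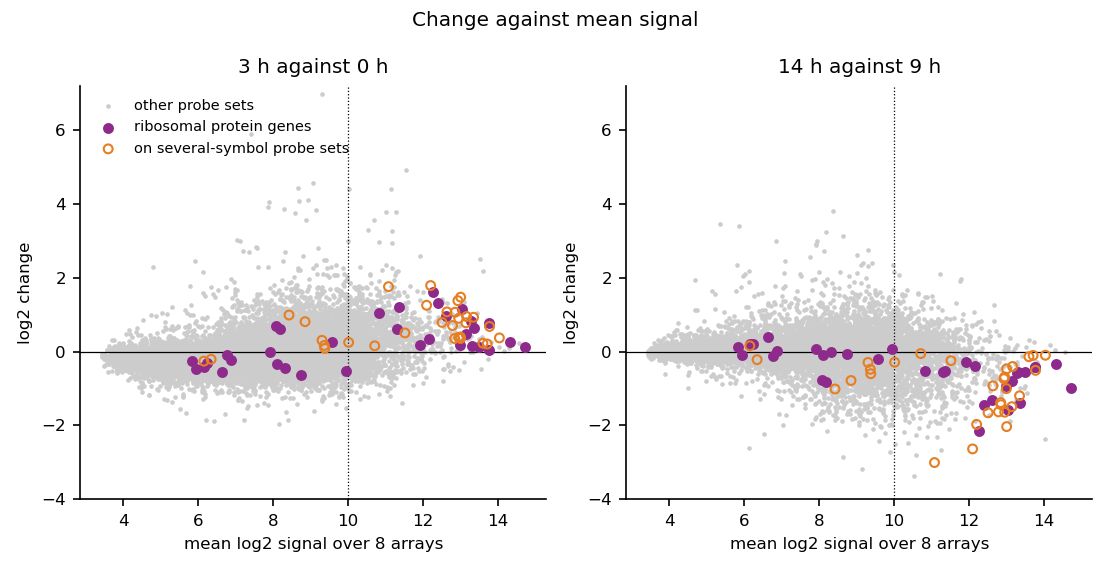
Log2 change at 3 h against 0 h and at 14 h against 9 h (vertical axes) plotted on mean log2 signal over the 8 arrays (horizontal axis), with the 34 ribosomal protein genes as filled points, ribosomal genes on probe sets of several symbols as open circles and the other probe sets in grey. The dotted line marks a mean signal of 10, and the 6 ribosomal protein genes with the largest rises at 3 h all lie to its right.

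Between 3 and 9 h, while the cumulus matrix expands, the share of changed genes was near that of all probe sets. At 9 h against 3 h 2 of the 34 genes rose and 6 fell, against 7.59% of all probe sets that rose and 11.8% that fell. The 34 genes had a median change of −0.06, and all probe sets one of 0.07 (log2). The 2 that rose were Rps24, by 0.45 ± 0.12 (SE), and Rpl35a, by 0.38 ± 0.12. Rps24, a small subunit protein needed for processing the 18S rRNA precursor in human cells, read 13.66, 13.68, 14.06 and 13.63 in EP2KO cells and 13.61, 13.65, 14.17 and 13.75 in WT cells. Its 9 h arrays were the highest of either genotype. The 6 that fell were Rps7 (−0.56 ± 0.15), Rpl37a (−0.55 ± 0.16), Rps27l (−0.51 ± 0.14), Rpl19 (−0.51 ± 0.13), Rpl8 (−0.46 ± 0.13) and Rpl7l1 (−0.42 ± 0.11). Of these, Rps7 read 13.18 at 9 h against 13.45 at 3 h in EP2KO cells, and 12.67 against 13.52 in WT cells. Without the WT array of 3 h, or without that of 9 h, none of the 6 falls and neither rise passed. Without the EP2KO array of 9 h 3 falls passed. Among bright genes 1 of 19 rose and 4 fell, against 8.21% and 24.4% of all bright probe sets, and among dim genes 1 of 15 rose and 2 fell, against 7.52% and 10.3%. Both 9 h arrays lay above both 3 h arrays in 11 of the 34 genes and below in 10, against 40.7% and 26% of all probe sets. All changes between 3 and 9 h lay between −0.56 and 0.45.

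At 14 h against 9 h, the step across ovulation, 19 of the 34 genes fell and none rose. The count of higher genes was 0 in each alternative tried, and at an unadjusted p under 0.05 limma had 1 higher and 21 lower. Of all probe sets tested 10% rose and 10.1% fell. The median change of the 34 genes was −0.42 and that of all probe sets was 0.03. Under quantile normalization the median of the 34 genes was −0.17. Among bright genes 17 of 19 fell and the median was −0.55, while 15.7% of all bright probe sets rose and 29.4% fell, with a median of −0.06. Of the 15 dim genes 2 fell, Rps4l and Rpl7l1, and none rose, against 7.67% and 9.34% of all dim probe sets. Both arrays of 14 h lay below both arrays of 9 h in 24 of the 34 genes and above in 6, against 25.4% and 34.2% of all probe sets. In bulk RNA, fewer cells of a type and less of an RNA in each cell cannot be told apart.

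Rps7 had the largest fall at this step. Its change was −2.16 ± 0.15 (SE), to 0.225 of the 9 h level, with a limma adjusted p of 9.70e-06. Its 14 h arrays read 10.93 in EP2KO cells and 10.61 in WT cells, below all 6 other values. In the large subunit Rpl19 fell by 1.58 ± 0.13 and Rpl7a by 1.44 ± 0.13, which left them at 0.334 and 0.367 of their 9 h levels. Rpl41, one of the shortest proteins known in eukaryotes, read 14.82, 14.96, 15.10 and 14.20 in EP2KO cells and 14.82, 14.94, 15.05 and 13.95 in WT cells. It fell by 1.0 ± 0.12, the 14 h arrays being the lowest of either genotype. Rpl7, Rpl6 and Rps3 had passed neither at 3 h nor at 9 h, and at 14 h against 9 h they fell by 0.93, 0.55 and 0.55.

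In the small subunit Rps18 fell by 1.39 ± 0.12 and Rps10 by 1.32 ± 0.11. Rps18 read 13.32, 13.93, 13.91 and 12.56 in EP2KO cells and 13.24, 13.89, 13.73 and 12.31 in WT cells, so that both 14 h arrays lay below all 6 others. Rps10 read 12.36, 13.27, 13.19 and 11.95 in EP2KO cells and 12.18, 13.18, 13.09 and 11.70 in WT cells, with the same order of arrays. Rps4x fell by 0.80 by its brightest probe set, while another of its probe sets (162498_r_at) rose by 0.465 and passed. Rpsa, also known as the laminin receptor, fell by 0.55 and Rps19 by 0.38. The bright genes that did not pass were Rpl10a, with −0.29, and Rps28, with −0.34. Of the genes that did not pass, Rpl32 had 0.41, Rps14 0.21 and Rps20 0.20, and all of these were dim.

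All 14 genes that rose at 3 h were among the 19 that fell at 14 h against 9 h, which is 14 of 14 of the first list and 14 of 19 of the second. Over all bright probe sets, 292 were in both lists, 49.1% of the 595 that rose at 3 h and 72.8% of the 401 that fell at 14 h against 9 h. Over all probe sets tested, 821 were in both, 38% of 2161 and 65.7% of 1249. These comparisons share no array, but they share the fit's estimate of the spread. The other 5 that fell were Rpl41, Rpl6, Rpl7, Rps24 and Rps3. By the mean of both arrays at each time, 13 of the 19 bright genes were highest at 3 h and the other 6 at 9 h, where 41.5% and 14.5% of all bright probe sets were. The lowest time was 14 h in 13 of the 19 and 0 h in 6, against 35.5% and 31.3% of all bright probe sets. Of the dim genes 11 of 15 were highest at 0 h, against 40.8% of all dim probe sets.

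**Figure D4:**
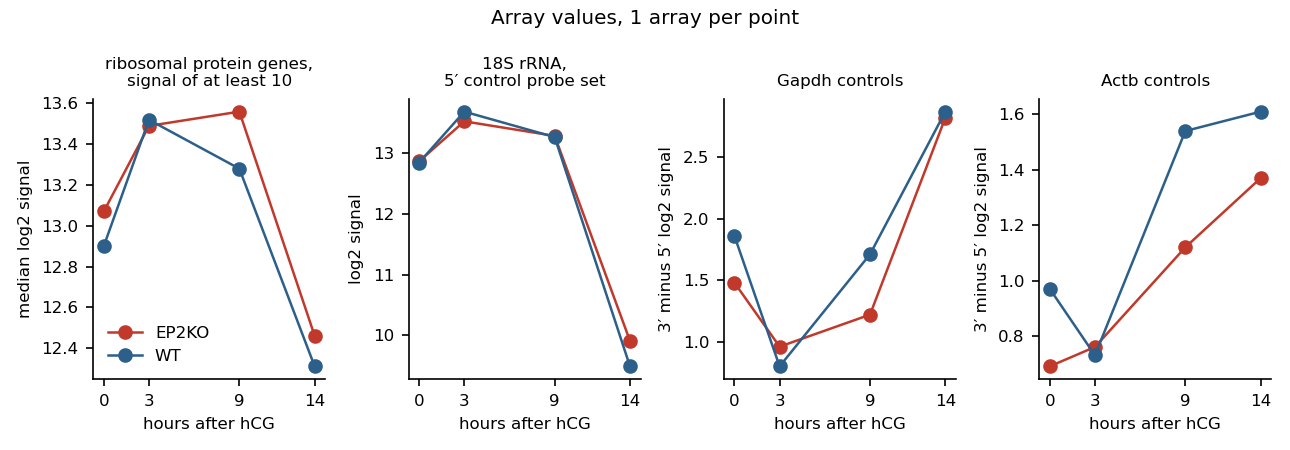
Values of each array against hours after hCG, 1 point per array and a line per genotype, from left to right the median log2 signal of the 19 bright ribosomal protein genes, the log2 signal of the 5′ control probe set of 18S rRNA, and the 3′ minus 5′ log2 difference of the Gapdh and the Actb controls. The 14 h arrays have the lowest ribosomal protein medians (12.46 in EP2KO and 12.31 in WT cells) and the widest Gapdh differences (2.82 and 2.87).

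Signs of RNA quality moved at the same step. The Gapdh control probe sets differed between 3′ and 5′ end by 1.48, 0.96, 1.22 and 2.82 (log2) at 0, 3, 9 and 14 h on the EP2KO arrays and by 1.86, 0.80, 1.71 and 2.87 on the WT arrays, so both 14 h arrays had the widest gap. The Actb gap was 0.69, 0.76, 1.12 and 1.37 on the EP2KO arrays and 0.97, 0.73, 1.54 and 1.61 on the WT arrays. The 5′ probe set for 18S rRNA read 9.91 at 14 h against 13.29 at 9 h on the EP2KO arrays, and 9.49 against 13.27 on the WT arrays. The other 18S probe sets had smaller falls. The 3′ one read 10.38 against 11.92 (EP2KO) and 9.91 against 12.13 (WT), and the middle one 9.99 against 11.24 and 9.66 against 11.56. The Gapdh gap was narrowest on the 3 h array of each genotype, where the bright ribosomal protein genes were above their 0 h level in median. The 18S signals were also higher at 3 h, at 13.53 against 12.87 at 0 h for the 5′ probe set on the EP2KO arrays and 13.69 against 12.85 on the WT arrays. For the 3′ probe set they were 12.18 at 3 h against 10.54 at 0 h on the EP2KO arrays and 12.39 against 10.50 on the WT arrays. Leukocyte markers moved too. Of the 12 measured of 12 listed, 6 rose at 14 h against 9 h and none fell, with a summed level of 12.17 against 11.35 (log2) on the EP2KO arrays and 11.80 against 11.36 on the WT arrays. Ptprc, the gene of the common leukocyte antigen CD45, stayed between 5.53 and 5.86 on all 8 arrays. Cumulus and granulosa markers fell in 6 of 10 at the same step, from a list of 13. Of all probe sets 10% rose and 10.1% fell there. At 3 h against 0 h, 3 of the 12 leukocyte markers fell and none rose. Of all probe sets 25.4% fell and 17.4% rose at 3 h, so the leukocyte falls were near the share of all. The part of these measures in the rise of ribosomal protein genes at 3 h and in their fall at 14 h was not tested.

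The fall at 14 h against 9 h varied in count with the arrays used. It was 10 genes without the EP2KO array of 9 h, 12 without the WT array of 14 h, and 8 with only the 4 arrays of these times in the fit. The named genes of this step kept their direction in all of these fits.

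At 14 h against 0 h, which sets the cells after ovulation against those before hCG, 12 genes fell and none rose. At an unadjusted p under 0.05 limma had 15 lower and none higher. Over all probe sets 13.5% rose and 15.2% fell. The median was −0.24 for the 34 genes and −0.06 for all probe sets. Of the 19 bright genes 8 fell, against 24.6% of all bright probe sets that rose and 24.5% that fell. Of the 15 dim genes 4 fell, against 12.2% that rose and 14.1% that fell. Both 14 h arrays lay below both 0 h arrays in 21 of the 34 genes and above in 2, against 37.5% and 25.6% of all probe sets. The 12 genes were Rpl19, Rpl38, Rpl41, Rpl6, Rpl7, Rpl7l1, Rps10, Rps13, Rps18, Rps27l, Rps3 and Rps7, 6 of each subunit. Rps7 was lower by −1.11 ± 0.15 (SE), Rpl19 by −0.94 ± 0.13, Rps18 by −0.85 ± 0.12 and Rpl41 by −0.75 ± 0.12. Rps3, which lines the channel where mRNA enters the small subunit, differed by −0.61 ± 0.13 and Rpl7 by −0.57 ± 0.11. Rpl13a (0.24 ± 0.16), Rplp0 (0.12 ± 0.12) and Rps27 (0.12 ± 0.12) had the smallest p of the genes with a positive change, and none of them passed. Without the EP2KO array of 0 h 7 genes fell. The Gapdh gap was 2.82 at 14 h against 1.48 at 0 h on the EP2KO arrays and 2.87 against 1.86 on the WT arrays. The 5′ 18S signal was 9.91 against 12.87 and 9.49 against 12.85 on the same pairs. The 3′ 18S signal differed less, with 10.38 against 10.54 and 9.91 against 10.50, and the middle one was 9.99 against 10.98 and 9.66 against 10.53. Of the 12 leukocyte markers 6 rose at 14 h against 0 h, with a summed level of 12.17 against 11.41 (log2) on the EP2KO arrays and 11.80 against 11.48 on the WT arrays. Of the 10 cumulus and granulosa markers 2 rose and 6 fell, with a summed level of 13.76 against 15.61 on the EP2KO arrays and 14.02 against 15.43 on the WT arrays. The part of these measures in this result was not tested.

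**Figure D5:**
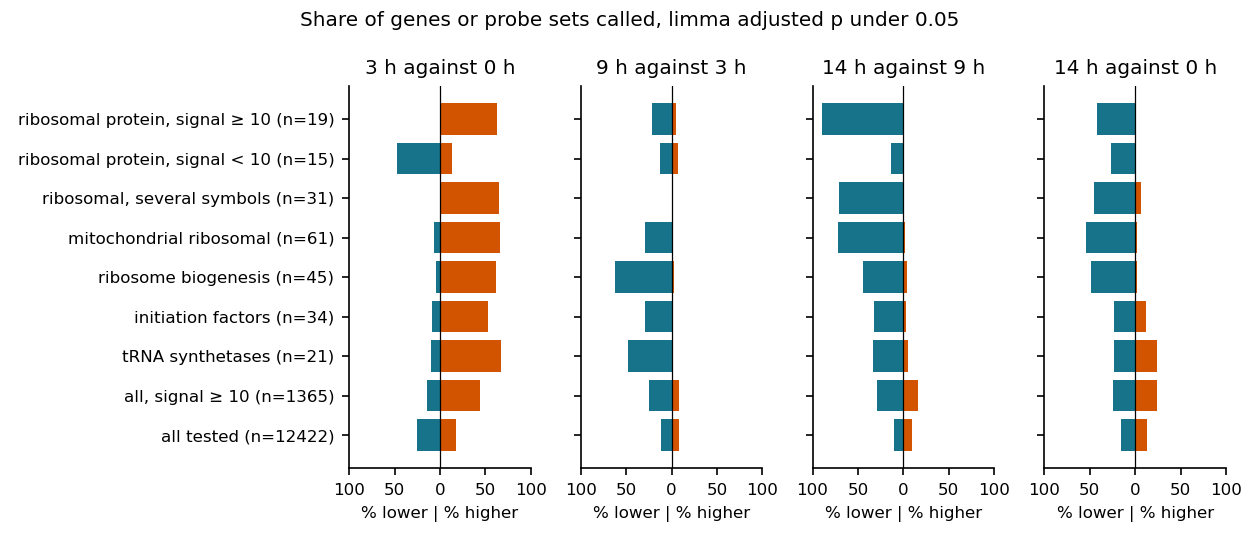
Percent of genes or probe sets called lower (bars to the left of 0) and higher (bars to the right) at a limma adjusted p under 0.05 in each time comparison, for bright and dim ribosomal protein genes, other lists of the translation machinery and all probe sets, with the number in each in brackets. At 14 h against 9 h the bar to the left reaches 89.5% in the bright ribosomal protein genes, 29.4% in all bright probe sets and 10.1% in all probe sets.

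Different probe sets of 1 gene often disagreed. For 8 of the 10 genes with several, the log2 changes in at least 1 time comparison differed by over 0.5. For Rps28 the brightest probe set (98085_f_at) changed by 0.26 at 3 h and −0.34 at 14 h against 9 h, and neither passed. A second one (100758_at) rose by 1.33 and fell by 1.89, and the third (98086_r_at), with a mean of 7.69, had −0.18 and 0.32. For Rpl10a, which lines the site where the deacylated tRNA leaves, the brightest probe set (161327_f_at) had 0.19 and −0.29. The other one (100711_at) read 11.35, 12.57, 12.25 and 10.34 in EP2KO cells and 11.21, 12.61, 11.70 and 10.26 in WT cells, a rise of 1.31 and a fall of 1.68. The suffix f in these names marks probes shared within a gene family, and Rpl41 is also given by such a probe set. Rpl32, Rpl38, Rps13, Rps24 and Rps27l are given by probe sets with the suffix r, and Rpl7 and Rps4l by ones with s. How specific any of these probe sets are was not tested.

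In Rpl19 the bright probe set (97483_at) rose by 1.15 at 3 h and the dim one (161961_at) fell by 0.45. At 14 h against 9 h the bright one changed by −1.58 and the dim one by −0.09, which did not pass. Rps4x had 5 probe sets. The brightest (100780_at) rose by 0.47 at 3 h, 161654_r_at fell by 0.65 and 162244_r_at by 1.0, while 162498_r_at and 162229_at did not pass. At 14 h against 9 h the brightest fell by 0.80, but 162498_r_at rose by 0.465 and passed. At that step 162229_at (−0.185), 161654_r_at (−0.095) and 162244_r_at (0.205) did not pass. Rps24 differed at 3 h, with 0.03 for the bright and −0.56 for the dim probe set. Rpl7 differed at 14 h against 9 h, with −0.93 and −0.08. Rpl22 differed at 9 h against 3 h, with 0.37 and −0.37. Rps4l differed at 3 h, with 0.60 and −0.32. In Rpl19, Rps4x, Rps24, Rpl7 and Rps4l the brighter probe set thus gave the rise at 3 h or the fall at 14 h. Ribosomal protein genes have many processed pseudogenes of near-identical sequence, and their signals cannot be separated here. Over all 48 probe sets 16 rose and 11 fell at 3 h. At 14 h against 9 h 1 rose, 162498_r_at of Rps4x, and 21 fell.

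Ribosomal protein symbols also stand on 39 probe sets that carry several symbols, mostly with pseudogenes or relatives, and these give 31 genes outside the 34. Their values do not rest on the probe sets above, but they come from the same arrays. At 3 h 20 of 31 rose and none fell, with a median of 0.68 and 23 higher and none lower at an unadjusted p under 0.05. Of all probe sets 17.4% rose and 25.4% fell at that step, and of all bright ones 43.6% and 14.1%. Across ovulation, at 14 h against 9 h, 22 of 31 fell and none rose, with a median of −0.74 and, unadjusted, 24 lower and none higher. There 10.1% of all probe sets fell and 10% rose, and 29.4% and 15.7% of all bright ones. At 9 h against 3 h none passed in either direction, with 1 higher and 2 lower at an unadjusted p under 0.05. Of all probe sets 7.59% rose and 11.8% fell there. The probe set with Rpl36 rose by 1.76 at 3 h and fell by 3.01 at 14 h. For that with Rps15a the changes were 1.26 and −2.64, for that with Rps16 1.48 and −2.04, and for that with Rps27rt 1.79 and −1.98. Against 0 h, 14 of 31 fell, and 2 rose, the probe sets with Rpl23a (0.70) and Rplp1 (0.38). For that comparison 15.2% of all probe sets fell and 13.5% rose, and 24.5% and 24.6% of all bright ones. These examples were chosen after their values were seen.

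Some of the genes are near relatives of each other, and no difference between relatives was tested. Rps27l, whose human relative is a p53 target, is close in sequence to Rps27, a zinc-finger protein of the small subunit. Rps27l read 8.18, 7.96, 7.66 and 7.72 in EP2KO cells and 8.17, 8.37, 7.65 and 7.75 in WT cells. Its level was lower at 14 h against 0 h by −0.44 and passed, while Rps27 had 0.12 and did not. Rpl7l1, which in human cells belongs to ribosome assembly, rose by 0.69 at 3 h and fell by 0.77 at 14 h against 9 h. Rpl7 had 0.17 at 3 h, not passed, and fell by 0.93. Rps4x rose by 0.47 and fell by 0.80, and Rps4l, a transcribed pseudogene in RefSeq, rose by 0.60 and fell by 0.83. Rpl39l, known from male germ cells, and Rpl39, at the exit tunnel, were dim and passed in none of the time comparisons, with changes between −0.27 and 0.14.

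No ribosomal protein gene passed the test between the genotypes. With 4 EP2KO arrays against 4 WT arrays 0 of 34 genes passed in limma in either direction, and 0% of all probe sets did. At an unadjusted p under 0.05 there was 1 gene higher and 1 lower. The median EP2KO minus WT difference was 0.026 (log2), with a range from −0.38 to 0.24 and a median SE over all probe sets of 0.0917. Rps4l had the largest difference, −0.38 ± 0.08 (SE), with an unadjusted p of 0.00105 and an adjusted p of 0.606. By its brighter probe set it was lower in EP2KO cells at all 4 times. The differences were −0.46, −0.44, −0.42 and −0.21 at 0, 3, 9 and 14 h. Its dimmer probe set differed by −0.37, 0.07, 0.06 and −0.03 at these times. The limma estimate for the dimmer probe set was −0.0675 ± 0.0965 (SE), which did not pass. Rps7 had 0.24 ± 0.10 and Rpl19 0.21 ± 0.10, both with an adjusted p of 0.948, and Rpl6 had 0.17 ± 0.08 with one of 0.961. On the lower side Rps20 had −0.13 ± 0.08 and Rpl10a −0.13 ± 0.08.

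A change of the genotype difference with the stage was tested as well. The EP2KO minus WT difference after hCG set against that at 0 h, that at 9 h and later against that before, and that at 14 h against the earlier ones gave 0 of 34 genes each, where 0.0644% of all probe sets departed upward and 0.0161% downward at 14 h and 0% in both directions otherwise. At an unadjusted p under 0.05 there was 1 gene, with a higher difference from 3 h on, and none at the other stages. At single times there is 1 array a genotype and so no test. Of the 34 genes, the EP2KO value was the higher one in 17, 17, 23 and 21 at 0, 3, 9 and 14 h, and of all probe sets in 45.2%, 53.5%, 45.2% and 53.1%. Of the 19 bright genes it was higher in 15, 10, 18 and 12, and of all bright probe sets in 77.3%, 40.7%, 60.7% and 36.7%. At 9 h the bright genes had a median difference of 0.22, against 0.07 over all bright probe sets. Rps7 had the widest gap at that time, with 13.18 in EP2KO cells against 12.67 in WT cells. At 9 h the erythroid marker Hba-a1 read 10.94 on the EP2KO array against 13.39 on the WT array and the Gapdh gap was 1.22 against 1.71, and their part in this difference was not tested.

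The rest of the translation machinery was described from lists of other genes, chosen with earlier results of these data known. The counts of all these lists are to be read beside the shares of all probe sets. At 3 h 17.4% rose and 25.4% fell, and at 9 h against 3 h 7.59% and 11.8%. At 14 h against 9 h 10% rose and 10.1% fell, and at 14 h against 0 h 13.5% and 15.2%. The lists mix bright and dim genes, and the shares of bright probe sets were larger in most cases. Of all bright probe sets 43.6% rose and 14.1% fell at 3 h, and 8.21% and 24.4% at 9 h against 3 h. At 14 h against 9 h 15.7% of these rose and 29.4% fell, and at 14 h against 0 h 24.6% and 24.5%. The proteins of the mitochondrial ribosome, a separate ribosome inside mitochondria, numbered 61. At 3 h 40 rose and 4 fell, with a median of 0.58 (log2). Set against 9 h, the 14 h arrays had 1 higher and 44 lower, with a median of −0.77, and at 14 h against 0 h 1 rose and 33 fell. Mrps11 rose by 1.82 at 3 h, Mrpl20 by 1.57 and Mrps17 by 1.29. In the step across ovulation Mrpl52 fell by 2.02, Mrpl58, a peptide release factor of mitochondria, by 1.69 and Mrps28 by 1.60. Between 3 and 9 h 18 of the 61 fell and none rose, with 28 lower and 1 higher at an unadjusted p under 0.05.

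Of 45 genes of ribosome assembly and the nucleolus, 28 rose and 2 fell at 3 h, with a median of 0.46. At 9 h against 3 h 28 of these 45 fell and 1 rose, with a median of −0.50, where 6 of the 34 ribosomal protein genes fell. The difference between the lists was not tested. Nop56, a core protein of the particles that methylate rRNA, fell by 1.40 at that step, Rrs1 by 1.36 and Tsr1 by 1.30. Tsr1, which in yeast takes part in the late assembly of small subunits, had risen by 1.29 at 3 h, with Emg1, an rRNA methyltransferase, at 1.37 and Ebna1bp2 at 1.36. Across ovulation 2 rose and 20 fell, among them Nop10 (−1.45) and Ebna1bp2 (−1.05). Myc, a transcription factor that drives ribosome assembly genes, rose by 1.73 at that step and by 1.78 against 0 h. Its mean signal was 7.04, and signals this dim may lie near background. At 14 h against 0 h 22 of 45 fell and 1 rose, with the nucleolar protein gene Ncl lower by 1.18 and Rrp1 by 1.16.

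Initiation factors, which bring ribosomes to mRNA, numbered 34. At 3 h 18 rose and 3 fell, with a median of 0.43. Eif1ax rose by 1.28 and Eif3c by 1.24, and Eif4e, which binds the mRNA cap, fell by 1.34. The mean signal of Eif4e was 7.175, which may lie near background. At 9 h against 3 h 10 fell and none rose (17 lower and 1 higher at an unadjusted p under 0.05), among them Eif3a (−0.91), Eif4a2 (−0.84) and Eif3d (−0.78). The step to 14 h brought 1 rise and 11 falls, led by Eif3k (−1.27), Eif3d (−1.07) and Eif6 (−0.97), which keeps the subunits apart. Against 0 h, 4 rose and 8 fell. The largest changes there were rises, of the helicase partner Eif4b by 1.03, of the helicase Eif4a1 by 0.96 and of Eif5b by 0.89.

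Elongation and release factors numbered 12. At 3 h 4 rose and 2 fell, among them the release factor Gspt1 (1.13), its relative Gspt2 (−0.52) and the translocase Eef2 (0.45). At 9 h against 3 h 4 fell and none rose, with 1 higher at an unadjusted p under 0.05. In the step to 14 h 2 fell, Gspt1 by 1.10 and Eef1d by 0.80, and Eef2 rose by 0.72. These are 16.7% lower and 8.33% higher, near the 10.1% and 10% of all probe sets. Against 0 h, 1 rose and 3 fell at 14 h, Eef1d by 1.36, Gspt1 by 0.95 and Abce1, a recycling factor, by 0.70. Aminoacyl-tRNA synthetases and their scaffold proteins, which charge tRNAs, numbered 21. At 3 h 14 rose and 2 fell, with a median of 0.73, with Eprs (1.33), Farsb (1.28) and Nars (1.27). At 9 h against 3 h 10 fell and none rose (15 lower and none higher at an unadjusted p under 0.05), with Tars at −1.15, Eprs at −0.99 and Iars at −0.91. From the 9 h arrays on, 1 rose and 7 fell, among them Aimp1 (−0.72), Iars (0.67) and Farsa (−0.63). Against 0 h, 5 rose and 5 fell at 14 h, with Vars at −1.0, Farsa at −0.97 and Nars at 0.80.

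Of 17 genes of mTOR and S6 kinase signalling, which governs TOP mRNAs, 2 rose and 9 fell at 3 h, with a median of −0.35. Eif4ebp1, whose protein holds back the cap-binding factor, rose by 1.44, and Sesn1, which restrains mTOR when amino acids are low, fell by 0.83. The mean signal of Sesn1 was 7.41, which may lie near background. Larp1, which binds TOP mRNAs, fell by 0.59 at 9 h against 3 h and rose by 0.72 at 14 h against 9 h. Set against 0 h, 3 rose and 1 fell at 14 h, with Ddit4, another mTOR inhibitor, at 1.32, Eif4ebp1 at 0.64 and Sesn1 at −1.39. These are 17.6% higher and 5.88% lower, beside 13.5% and 15.2% of all probe sets. Fau, whose product is cut into a ubiquitin-like part and a ribosomal protein, was the only measured gene of its list of fusion and scaffold proteins. It was dim, with a mean of 7.28, and fell by 0.68 at 3 h and was lower by −0.41 at 14 h against 0 h. These arrays measure RNA, and no value here bears on how the mRNAs were translated.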

How the data were processed

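Per the submitters' processing notes the deposited log2 signals were made with RMA; no RMA version is given in the sources used here. They were used as deposited, with no filter or added constant. Of 12488 probe sets 66 were controls, so 12422 were tested. Symbols came from the platform annotation (10833 probe sets with 1, 396 with several, 1193 with none), and all 48 member probe sets matched a RefSeq symbol. Start regions are from RefSeq, GRCm38.p6. Detection calls were not used here, so dim signals may lie near background. No 2 arrays shared more than 2.54% of values. Precision is limited by the number of arrays.

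limma 3.58.1 in R 4.3.3 (lmFit, eBayes) fitted time and genotype over all 8 arrays, with 2 arrays a time. Residual degrees of freedom were 3, and the prior added 7.24. Any genotype difference in the response goes into the residual. Departures were genotype by stage terms, with 2 residual degrees of freedom. P-values are two-sided and adjusted by Benjamini-Hochberg over all 12422 probe sets, with a threshold of 0.05. A time contrast had a median standard error of 0.130. The fit was also run on simulated data, and no result here rests on that run. Named were, per comparison, the 6 largest rises and falls that passed and ran the same way in both genotypes, or the 3 genes with the smallest p where fewer than 3 passed, genes whose probe sets differed by over 0.5, pairs of relatives, and the 3 largest changes of each other list. Other members may be named too. Members and lists were chosen with earlier results of these data known, and the split at a mean of 10 was added after the data had been seen. The summed level of a marker list is log2 of the sum of linear signals.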

Additional observations from a re-analysis of the deposited data

How the results depend on the processing

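No paired analysis was possible because each genotype has 1 array a time and nothing ties the animals of 1 genotype to those of the other. The cause of the shifts below was not tested, except that fewer arrays or genes enter some fits. Of the 7 genes lower at 3 h, 4 were left under median centring, under quantile normalization and without the lowest 40% of probe sets, and 2 with the arrays of the compared times alone. Median centring turned the split over all probe sets at 3 h to 2394 higher and 2111 lower, beside 2161 and 3152 as deposited, and that of the 34 genes to 16 and 4, beside 14 and 7. Of the 2 genes higher at 9 h against 3 h, 1 was left under centring, quantile normalization or a trend in eBayes, and with the arrays of the compared times alone there were 0 higher and 0 lower. The same restriction gave 8 lower at 14 h against 9 h.

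The median change at 3 h (0.175) was 0.25 under centring, 0.017 under quantile normalization, 0.35 without the lowest 40% and 0.135 with the probe sets of a gene averaged. That at 14 h against 9 h (−0.42) was −0.17 under quantile normalization and −0.55 without the lowest 40%. The genotype median (0.026) was 0.0059 under quantile normalization and 0.055 without the lowest 40%.

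Bright genes alone gave 0 lower at 3 h and 1 higher at 9 h, with medians of 0.61 at 3 h, −0.16 at 9 h against 3 h, −0.55 at 14 h against 9 h and 0.0875 between genotypes. Dim genes alone gave 2 higher at 3 h, 1 higher and 2 lower at 9 h against 3 h, 2 lower at 14 h against 9 h and 4 lower at 14 h against 0 h. Their medians were −0.32, 0.105, −0.01 and −0.0225 for 3 h, 9 h against 3 h, 14 h against 9 h and the genotype.

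With 1 array left out at a time, a time left with 1 array is assumed to vary like the others. Then 0 to 7 genes were lower at 3 h, 0 to 1 higher and 0 to 6 lower at 9 h against 3 h, 10 to 19 lower at 14 h against 9 h and 7 to 12 lower at 14 h against 0 h. The median was 0.162 to 0.252 at 3 h and 0.01 to 0.055 between genotypes. The count higher at 3 h was 11 to 14. Of 32 named values that passed, between 18 (without the WT array of 3 h) and 31 (without either 14 h array) still passed, and 20 did with the arrays of the compared times alone, and none reversed under any of these alternatives.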
